A study of Mus musculus with 6 samples.

Results

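The genes of mouse chromosome 18 that were expressed in the lens were followed along the chromosome, comparing lenses of fibronectin conditional knockout mice (FNcKO) with lenses of wild-type mice (WT). Members were chosen by their mean level, as the rows of the deposited table on chromosome 18 with at least 1 FPKM (a fragment count scaled by transcript length and library size) as the mean over the 6 libraries. Of 1078 rows on the chromosome, 273 reached this level. The rule then left out 14 of these by name and 8 because their symbols start as those of ribosomal proteins, mitochondrial ribosomal proteins, small nucleolar RNAs or transfer RNAs, which gave 251 members of 41449 rows in all. Its level of 1 FPKM rests on measured values, which are therefore described here without a test. Of the 251 members, 19 had 1 group with a mean under 1 FPKM and so reached the level only through the other group, which ties their presence to their difference.

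The study asked what fibronectin, an extracellular matrix glycoprotein, does in the lens after birth. Both groups were lenses of mice 2 months old, with 3 libraries per group and 2 pooled lenses per library, and the submitters call the libraries of a group biological replicates. WT mice were C57BL/6, while FNcKO mice were of a mixed background of C57BL/6, 129 and FVB/N. The sources used here do not give the promoter that drives the recombinase or the alleles the mice carry. Strain background divides the libraries exactly as genotype does, so the effect of the deletion and the effect of the background cannot be told apart in any comparison below.

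As background, inbred strains differ in DNA sequence along every chromosome, and offspring of a cross inherit long stretches of a chromosome from one parent strain. Genes that differ in RNA level between strains can therefore lie near each other in such a stretch, and each can be higher or lower. Mouse chromosome 18 carries genes of many kinds, among them the clustered protocadherins, which are cell surface recognition proteins, the desmosomal cadherins, and regulators of Wnt, TGF-beta and glucocorticoid signalling.

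The depth was estimated at 31700000, 28400000 and 26400000 fragments in WT replicates 1 to 3 and at 21700000, 22000000 and 19800000 in FNcKO replicates 1 to 3. The targeted gene Fn1, on chromosome 1, was low in both groups, at 0.135, 0.188 and 0.253 FPKM in WT and 0.128, 0.0482 and 0.0942 FPKM in FNcKO, below the level that was tested. All 10 lens fiber markers were abundant. Bfsp2 has no value in WT replicate 2 and was left out of their sum. This sum was 169149 to 177401 FPKM in WT and 173264 to 182570 FPKM in FNcKO. The 6 lens epithelium markers summed to 878.5 to 903.4 FPKM in WT and 1004.5 to 1130.6 FPKM in FNcKO, with 2 of the 6 past the test, both higher. Most of this sum was Cd24a, with means of 837.9 FPKM in WT and 1007.6 FPKM in FNcKO. Log2 changes were above 0 for 5 of the 6, and Foxe3 was lower, at 12.4 and 10.1 FPKM. Of the 10 rod photoreceptor markers, Gnat1 also lacks a value in WT replicate 2 and was left out of the sum. The sum of the others was 24.7 to 67.9 FPKM in WT and 36.6 to 37.1 FPKM in FNcKO. Gnat1 was at 18.9 and 22.2 FPKM in WT replicates 1 and 3 and at 8.84, 9.635 and 9.77 FPKM in FNcKO. Of the 10, 1 passed the test, lower, and 1 had a log2 change above 0. The part of these cell types in the differences below was not tested, and in such bulk samples fewer cells of a type and less RNA per cell cannot be told apart.

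Most members were expressed at a modest level. Their median mean level was 3.34 FPKM, where that of all 10149 genes tested was 3.83 FPKM, and 74 members lay below 2 FPKM while 46 reached 10 FPKM. RefSeq lists 205 members as protein-coding, 23 as pseudogenes and 7 as long non-coding RNAs, out of 240 that could be matched by symbol. The most abundant member was the pseudogene Gm10269 with a mean of 138.4 FPKM, followed by the microRNA rows Mir1893 and Mir6357, the predicted gene LOC108168363, Ndfip1, an adaptor of Nedd4-type ubiquitin ligases, with 52.3 FPKM, and the pseudogene Gm10036. Just inside the level of 1 FPKM lay Gm30765 (1.01 FPKM), Ino80c (1.02 FPKM) and Stard4 (1.04 FPKM), and just outside it Arhgef37 (0.994 FPKM), Gm6724 (0.982 FPKM) and Map3k2 (0.973 FPKM).

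FNcKO lenses had more RNA of 1500015A07Rik, a long non-coding RNA, of Myo7b, an unconventional myosin of microvilli, of Colec12, a collectin scavenger receptor, and of Marchf3, a membrane-bound ubiquitin ligase, and less of Epb41l4a, a band 4.1 family protein, of its neighbouring non-coding RNA Epb41l4aos, and of Malt1, a paracaspase of NF-kappaB signalling. Of 251 members, 13 passed an adjusted p of 0.05 in limma (5.18%), where 1.89% of all genes tested did. Among the 19 members that reached 1 FPKM through 1 group only were 4 of the calls, 1500015A07Rik, Myo7b, Gm9949 and Mir1893, and the other 9 were among the 232 remaining members. The same split was not made over all genes tested, so neither count has a background share. The 4 calls through 1 group also passed when the filter was lowered to 0.1 FPKM. That leaves their values as they were, so it does not undo the tie between presence and difference. Mir1893, with a mean of 0.0104 FPKM in FNcKO, reached the lower level through WT alone as well. Of the 13, 7 were higher in FNcKO (2.79% of the members, against 0.857% of all genes tested) and 6 were lower (2.39%, against 1.03%). The rule had also left out 3 genes that passed, Lims2, which was higher, and Fgf1 and Pdgfrb, which were lower, so the whole chromosome held 16 calls among 273 tested rows (5.86%). Because named genes were left out with their results known, the members' count is lower than that of the chromosome.

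**Figure D1:**
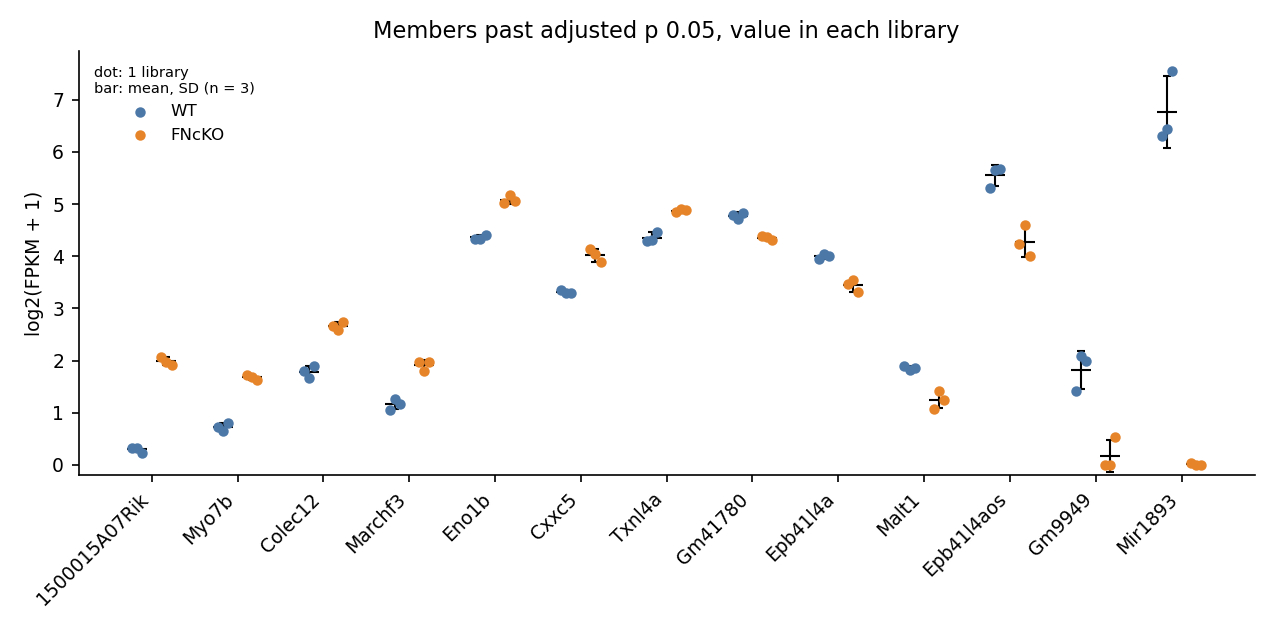
Level of each of the 13 members past an adjusted p of 0.05, as log2(FPKM + 1), in every library; dots are single libraries, and bars give the mean and SD of 3 libraries. From left to right the members run from the largest rise to the largest fall, and for each of the 13 the WT and FNcKO dots do not overlap.

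The largest rise among the 13 was that of 1500015A07Rik (chromosome 18, 61726390 to 61728254, GRCm38, plus strand), which GENCODE classes as antisense. Its level was 0.259, 0.248 and 0.178 FPKM in WT replicates 1 to 3 and 3.19, 2.95 and 2.78 FPKM in FNcKO replicates 1 to 3. All 3 FNcKO libraries stood far above all 3 WT libraries, and the mean rose 13-fold, from 0.228 ± 0.044 to 2.97 ± 0.203 FPKM (mean ± SD, n = 3 each; limma adjusted p = 0.00129). From the estimated depths, the WT libraries held roughly 13.7, 11.7 and 7.83 fragments of it, and the FNcKO libraries 115.2, 108 and 91.8. Its start lies 30 bases from the start of Grpel2, a mitochondrial co-chaperone on the minus strand, which runs the other way. Grpel2 itself was at 3.03 ± 0.0832 FPKM in WT and 3.31 ± 0.188 FPKM in FNcKO (mean ± SD, n = 3 each; limma adjusted p = 0.485).

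Myo7b (31959234 to 32036931, minus strand) stood at 0.665, 0.57 and 0.742 FPKM in WT and at 2.3, 2.23 and 2.08 FPKM in FNcKO. It rose 3.35-fold, a log2 change of 0.95 with an SE of 0.0826 (limma adjusted p = 0.00814). The groups did not overlap, and the lowest FNcKO library was above the highest WT library. Its neighbour at a distance of 615 bases, on the plus strand, is Lims2, a LIM-domain protein of cell-matrix adhesions and one of the genes the rule left out. Lims2 stood at 0.0414, 0.417 and 0.399 FPKM in WT and at 5.97, 4.49 and 3.39 FPKM in FNcKO (limma adjusted p = 0.0125). On the other side of Myo7b, Iws1, a transcription elongation factor, had a log2 change of 0.03 (limma adjusted p = 0.808).

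Colec12 (9707648 to 9877995, plus strand) was at 2.47, 2.17 and 2.73 FPKM in WT and at 5.3, 4.99 and 5.68 FPKM in FNcKO. Every FNcKO library exceeded every WT library, and the mean rose 2.17-fold (limma adjusted p = 0.0122). Marchf3 (56761716 to 56925652, minus strand), whose symbol had been turned into a date in the table and was restored from its start position in RefSeq, was at 1.08, 1.4 and 1.26 FPKM in WT and at 2.93, 2.48 and 2.93 FPKM in FNcKO. It rose 2.23-fold (limma adjusted p = 0.0247), with no overlap between groups. In GENCODE, antisense genes or pseudogenes lie within the spans of Colec12, Myo7b and Marchf3 but share no exon bases with them.

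Cxxc5 (35829356 to 35861691, plus strand), a CXXC-type zinc finger DNA-binding protein, was at 9.21, 8.79 and 8.85 FPKM in WT. The FNcKO libraries held 16.5, 15.4 and 13.7 FPKM. The rise was 1.7-fold (limma adjusted p = 0.0212). Its annotated exons share 49 bases with a transcript on the same strand and 11 bases with an antisense gene. Txnl4a (80206794 to 80225851, plus strand), a component of the spliceosome, went from 18.6, 18.8 and 21.2 FPKM in WT to 27.6, 28.9 and 28.4 FPKM in FNcKO, a 1.45-fold rise (limma adjusted p = 0.0331). Its exons share 457 bases with Gm16286, a protein-coding gene on the same strand, and fragments from shared bases cannot be told apart. The library kit keeps the strand, but no source used here says whether the counting did. Both genes had groups that did not overlap. Eno1b (48045335 to 48048379, plus strand) is a copy of the glycolytic enzyme gene Eno1, and the sources used here do not say how the authors' counting divided reads between such copies, so its value is uncertain. Its level was 19.2, 19.1 and 20.3 FPKM in WT and 31.4, 35.3 and 32.4 FPKM in FNcKO, a 1.69-fold rise (limma adjusted p = 0.0113). Eno1 itself, on chromosome 4, was at 93.5 ± 6.36 FPKM in WT and 115.1 ± 9.39 FPKM in FNcKO (mean ± SD, n = 3 each; limma adjusted p = 0.175).

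Among the members that fell, Epb41l4a (33796327 to 34007676, minus strand) and Epb41l4aos (33794892 to 33795989, plus strand) lie 338 bases apart. Epb41l4a was at 14.5, 15.5 and 15 FPKM in WT and at 10.1, 10.6 and 8.92 FPKM in FNcKO, a 1.52-fold fall (limma adjusted p = 0.0342). Epb41l4aos was at 38.7, 49.4 and 50.3 FPKM in WT and at 17.9, 23.2 and 15.1 FPKM in FNcKO, a 2.46-fold fall (limma adjusted p = 0.0344). Both were lower in each FNcKO library than in any WT library. A small nucleolar RNA is annotated within the span of Epb41l4aos, outside its exons. The next members on either side, Nrep and the Wnt regulator Apc, had log2 changes of -0.14 and 0.03 (limma adjusted p = 0.307 and 0.872).

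Malt1 (65430969 to 65478888, plus strand) was at 2.7, 2.53 and 2.61 FPKM in WT and at 1.11, 1.66 and 1.38 FPKM in FNcKO. It fell 1.89-fold, at the edge of the threshold (limma adjusted p = 0.0494). The predicted gene Gm41780 (30608480 to 30609017), a row of 538 bases over a processed pseudogene in GENCODE, fell from 26.4 ± 1.23 to 19.5 ± 0.619 FPKM (mean ± SD, n = 3 each; limma adjusted p = 0.0411). Its libraries held 26.6, 25.1 and 27.5 FPKM in WT and 20, 19.7 and 18.8 FPKM in FNcKO, so this smallest of the 13 differences also left a gap between the groups. Gm9949 (62180032 to 62184406, plus strand), classed as protein-coding in RefSeq and as non-coding in GENCODE, was at 1.65, 3.23 and 2.98 FPKM in WT. In FNcKO it was listed at 0 in replicates 1 and 2 and at 0.441 FPKM in replicate 3 (limma adjusted p = 0.0358). At the estimated depths this is about 39.9, 69.9 and 59.9 fragments in WT and 6.65 in FNcKO replicate 3.

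Mir1893 (6490564 to 6490646, minus strand) had the largest fitted fall and the least certain value. It was at 77.9, 86 and 187 FPKM in WT, at 0.0312 FPKM in FNcKO replicate 1, at 8.11e-07 FPKM in replicate 2 and listed at 0 in replicate 3 (limma adjusted p = 0.00129). The row is 83 bases long and overlaps annotated exons of Epc1, a chromatin gene on the same strand, and of Gm28529 on the opposite strand, so its fragments cannot be assigned to the microRNA. Epc1 was at 4.06 ± 0.401 FPKM in WT and 3.56 ± 0.469 FPKM in FNcKO (mean ± SD, n = 3 each; limma adjusted p = 0.499). In all, 5 members were shorter than 200 bases, and each of them was listed at 0 in at least 1 library. None of the other 4 passed, and 3 of them were found in 1 library only. Scarna17 stood at 214 FPKM in WT replicate 3 and 0 elsewhere, and Mir1901 at 148.5 FPKM in WT replicate 2 and 0 elsewhere. Mir5107 was at 66 FPKM in FNcKO replicate 3 alone, while Mir6357 was listed at 0 only there. Among members with a mean of at least 5 FPKM, the spread within WT was widest for Scarna17, Mir1901 and Mir1893, and that within FNcKO for Mir5107 and Mir6357. Without rows under 200 bases, 12 of 246 members passed (4.88%), where 1.9% of all such genes tested did.

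With 1 library fewer, fewer genes passed, among the members and among all genes. The members called numbered 3 without WT replicate 1, 3 without WT replicate 2, 5 without WT replicate 3, 7 without FNcKO replicate 1, 7 without FNcKO replicate 2 and 5 without FNcKO replicate 3, where 0.365%, 0.473%, 0.552%, 1.15%, 0.739% and 0.64% of all genes tested passed. 1500015A07Rik, Myo7b and Mir1893 passed with any 1 library left out. They are among the calls that reached 1 FPKM through 1 group only. The level rule still used all 6 libraries in these runs, so this does not undo the tie between presence and difference. Eno1b was lost without WT replicate 1 or 2, Colec12 without WT replicate 1 or 2 or FNcKO replicate 3, and Cxxc5 without any of the WT replicates or FNcKO replicate 2. Marchf3 and Epb41l4aos passed without FNcKO replicate 2 and were lost with any other library left out. Epb41l4a, Gm41780, Gm9949, Malt1 and Txnl4a were lost with any 1 library left out. Leaving out 1 library changed the log2 difference of a called member by at most 1.16 times, for Malt1. The direction of all 13 was kept under each alternative that was run. Because the groups of each did not overlap, leaving out a library could not have reversed it. Of the alternatives, only the other scalings could have done so.

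The balance of higher and lower calls depended on how libraries were scaled. There were 7 higher and 6 lower as deposited, where 1.89% of all genes tested passed. The split was 10 and 6 with median-ratio scaling (2.38% of all genes), 10 and 5 after quantile normalization (1.94%), and 7 and 2 when all libraries were set to an equal FPKM total (0.877%). This last scaling shifted the median over all genes tested from -0.04 to 0.15 on the log2 scale, and under it Epb41l4a, Epb41l4aos, Gm41780, Malt1 and Txnl4a missed the threshold.

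A wider layer of members differed by less. An unadjusted p under 0.05 was reached by 65 members (25.9%), against 18.1% of all genes tested, with 24 higher (9.56%, against 6.74%) and 41 lower (16.3%, against 11.4%). WT and FNcKO values did not overlap in 82 members (32.7%), against 25.6% of all genes tested, with 32 higher (12.7%, against 9.31%) and 50 lower (19.9%, against 16.3%). The median log2 change of the members was -0.03, where that of all genes tested was -0.04, and 101 of 251 members had a change above 0 (40.2%, against 39.7%). The lower and upper quartiles were -0.18 and 0.08 for the members, and -0.16 and 0.08 for all genes tested.

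**Figure D2:**
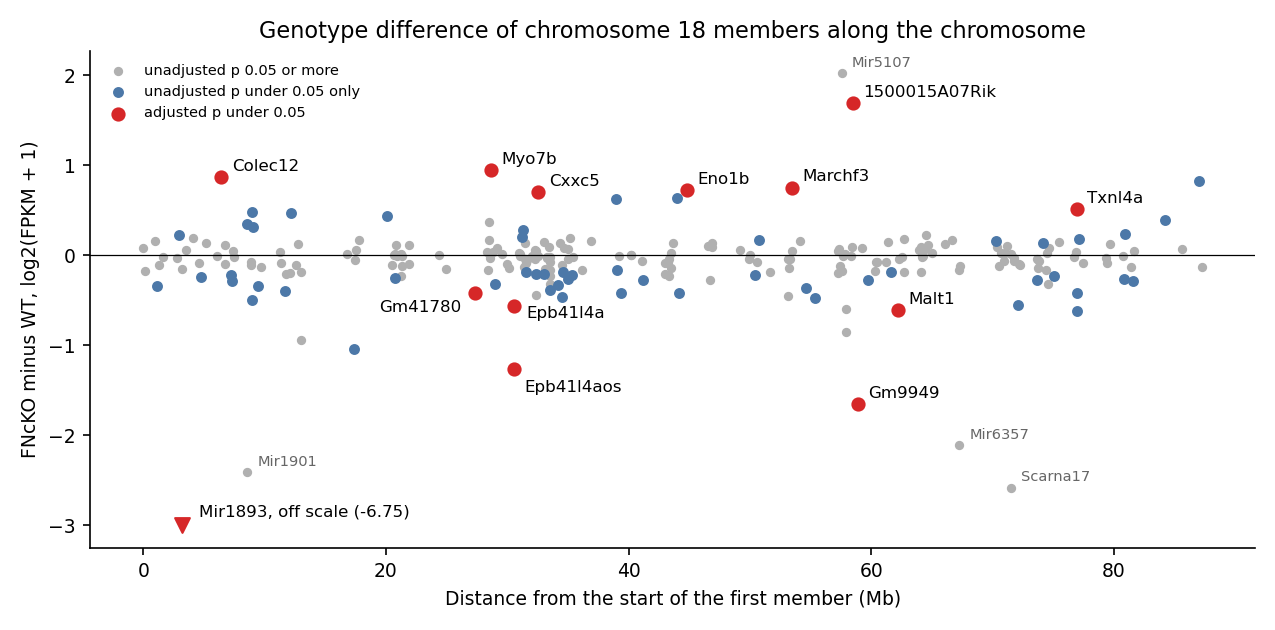
Difference between FNcKO and WT on the log2(FPKM + 1) scale for each member, placed by its distance from the start of the first member in Mb. Red points are the 13 members past an adjusted p of 0.05, blue points the others with an unadjusted p under 0.05; Mir1893 is drawn at the lower edge because its value of -6.75 is off the scale, and members on both sides of 0 are found along the whole chromosome.

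Of the autosomes, chromosome 18 held the largest share of genes past either threshold in the values as deposited. Among the other 18 autosomes the share of tested genes past the adjusted threshold ran from 0% on chromosome 14 to 3.21% on chromosome 3, with a median of 1.85%, against 5.18% of the chromosome 18 members. The share with an unadjusted p under 0.05 ran from 12.2% on chromosome 14 to 23.4% on chromosome 8, against 25.9%. No autosome was above the members in either share as deposited. Values on part of chromosome 9 rest on 5 libraries, since WT replicate 2 has none there, and the members had values in all 6. With WT replicate 2 left out, 1 autosome, chromosome 13 with 1.46% called, was above the members with 1.2%. When all libraries were set to an equal FPKM total, 8 autosomes had a larger share under an unadjusted p of 0.05 than the 15.9% of the members, while none had a larger share called than their 3.59%. Chromosome 8 also exceeded the members at that threshold with a filter at 5 FPKM, 36.8% against 32.9%, and 2 autosomes did without FNcKO replicate 2, reaching 22.6% against 21.9%. The members also had a smaller spread within FNcKO than genes of any other autosome, with a median SD of 0.117 on the log2 scale, against 0.119 to 0.143 elsewhere. Within WT the median SD was 0.0957, with 1 autosome below it.

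**Figure D3:**
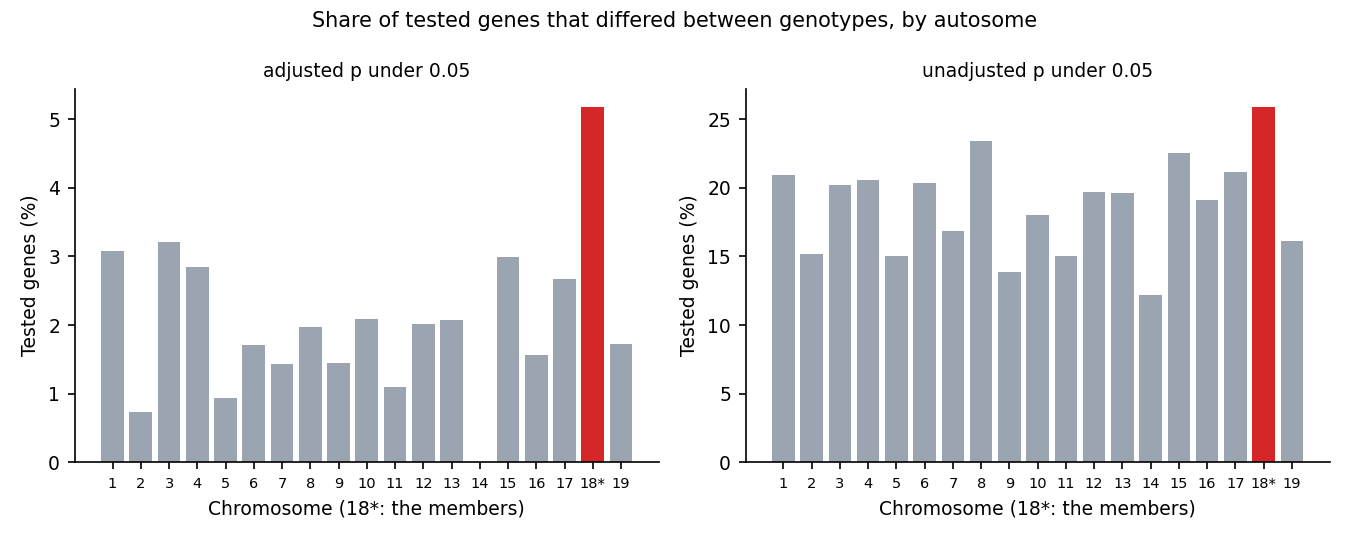
Share of tested genes, in percent, with an adjusted p under 0.05 (left) and an unadjusted p under 0.05 (right) on each autosome, with the chromosome 18 members in red. The members stand highest in both panels, at 5.18% and 25.9%.

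The called members were spread over the chromosome. Between Colec12 and Gm41780 lay 20.9 Mb with no call and between Malt1 and Txnl4a 14.8 Mb. The densest stretch ran from Gm41780 to Cxxc5, with 5 called members in the window from 30000001 to 40000000, which also held most members (61). Its calls were mixed, with Myo7b and Cxxc5 higher and Gm41780, Epb41l4aos and Epb41l4a lower. The window from 60000001 to 70000000 held 3 calls among 40 members, of which 1500015A07Rik was higher and Gm9949 and Malt1 were lower. Of 229 windows of this length with at least 10 tested genes on the other autosomes, 16 held 3 or more calls and 101 held any, and the fullest held 8. No gene was left out by name on those autosomes. On chromosome 18 the rule left out the calls Lims2 (31.9 Mb, higher) and Fgf1 (38.8 Mb, lower), both in the densest window. Pdgfrb (61 Mb, lower), also left out, lies in the window from 60000001 to 70000000. The counts of 5 and 3 are therefore lower than those of the whole chromosome.

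The 13 called members have 26 neighbouring positions among the tested rows of the chromosome, the rows left out by the rule included. A difference of the same sign was found at 14 of the 26. An unadjusted p under 0.05 was reached at 10 (38.5%), against 18.1% of all genes tested and 26% of the 273 tested rows of the chromosome. Of the 26, 4 reached it in the same direction as the call (15.4%) and 6 in the opposite direction (23.1%). Calls held 5 of the 26 positions. Over all genes tested, 6.74% reached it higher and 11.4% lower. As 14 positions lay beside higher calls and 12 beside lower ones, neither share is a direct background for same or opposite direction. The same-direction cases were Lims2 beside Myo7b, Nedd4l beside Malt1, and Epb41l4a and Epb41l4aos, each the neighbour of the other. Nedd4l, a ubiquitin ligase, was at 2.83 ± 0.223 FPKM in WT and 2.36 ± 0.0548 FPKM in FNcKO (mean ± SD, n = 3 each; limma adjusted p = 0.242). Around Txnl4a both neighbours pointed the other way: Rbfa, a factor of mitochondrial ribosome assembly that lies 6175 bases away on the minus strand, was at 2.61 ± 0.127 FPKM in WT and 1.38 ± 0.458 FPKM in FNcKO (mean ± SD, n = 3 each; limma adjusted p = 0.11). Pqlc1 on its other side was at 2.21 ± 0.243 and 1.42 ± 0.404 FPKM (mean ± SD, n = 3 each; limma adjusted p = 0.2). 1500015A07Rik and Gm9949, 451778 bases apart with no tested row between them, changed in opposite directions. Each is counted as the neighbour of the other.

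Taking all members in order, 115 of 250 neighbouring pairs (46%) had log2 changes of the same sign, below the 50.2% to 56.6% of the other 18 autosomes. For all 273 tested rows of the chromosome it was 46.7% of 272 pairs. The Spearman correlation of neighbouring log2 changes was -0.09 over the 250 pairs, while the other autosomes ran from -0.06 to 0.2; neighbouring genes share the same libraries, and pairs share members. Both members of a pair reached an unadjusted p under 0.05 in 17 pairs (6.8%), in the same direction in 6. Chromosome 8 shows the other extreme, with 56 such pairs (10%), 45 of them in the same direction, and a run of 46 genes with changes of 1 sign. The longest such run among the members was 9. These shares depended on the genes, libraries and scaling used. With a filter at 5 FPKM, which left 85 members, 59.5% of neighbouring pairs had the same sign. No other autosome had a larger share. Among all 251 members the share was 52.8% without WT replicate 1 and 54.4% without FNcKO replicate 2. It was 61.6% when all libraries were set to an equal FPKM total, where the other autosomes ran from 64.8% to 78%. The members' median log2 change was -0.07 without FNcKO replicate 2 and 0.16 at an equal FPKM total. A shift of most changes to 1 side of 0 by itself raises the share.

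**Figure D4:**
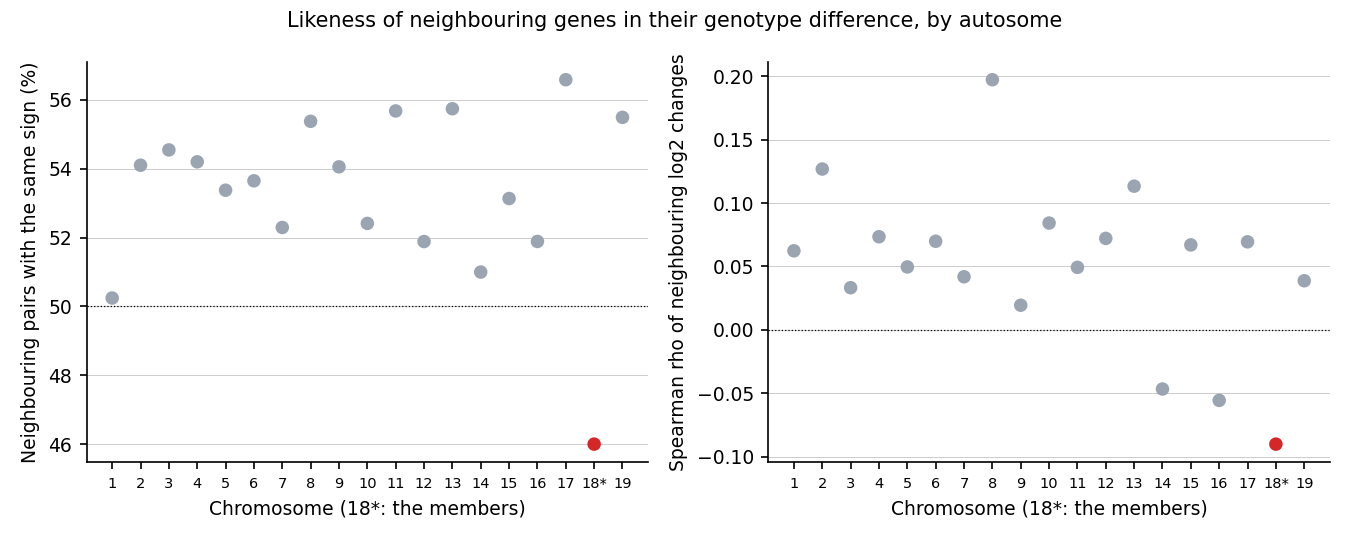
Share of neighbouring tested genes whose differences between FNcKO and WT have the same sign, in percent (left), and the Spearman correlation of neighbouring log2 changes (right), for each autosome, with the chromosome 18 members in red. The members lie lowest in both, at 46% and -0.09; the vertical axes do not start at 0.

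In windows of 10 Mb, members with an unadjusted p under 0.05 were found in every window, higher and lower together in each one that held at least 10 members. The window from 30000001 to 40000000 held most of them, 17 of 61 members (27.9%), with 4 higher and 13 lower. The largest share among windows with at least 10 members was 47.1% (8 of 17) in the window from 80000001 to 90000000, with 4 higher and 4 lower, followed by 39.1% (9 of 23) from 10000001 to 20000000. On the other autosomes the share per window ran from 0% to 55.3% with a median of 17.1%. Median log2 changes of these windows lay between -0.104 and -0.00158, where at least 10 members were present, within the range of the windows of the other autosomes, which was -0.15 to 0.18.

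The FNcKO libraries did not move together in every window. Relative to each library's own median over the members, the window from 10000001 to 20000000 stood at -0.07 in FNcKO replicate 1 and -0.11 in FNcKO replicate 3, but at 0.01 in FNcKO replicate 2, on the log2 scale. The first window, up to 10000000, stood at 0.11 in FNcKO replicate 1 and at -0.01 and 0.02 in replicates 2 and 3. Over the 9 windows with at least 10 members, the FNcKO libraries ranged from -0.11 to 0.11 and the WT libraries from -0.03 to 0.04. Each WT library is part of the WT mean it is set against, which narrows its range.

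**Figure D5:**
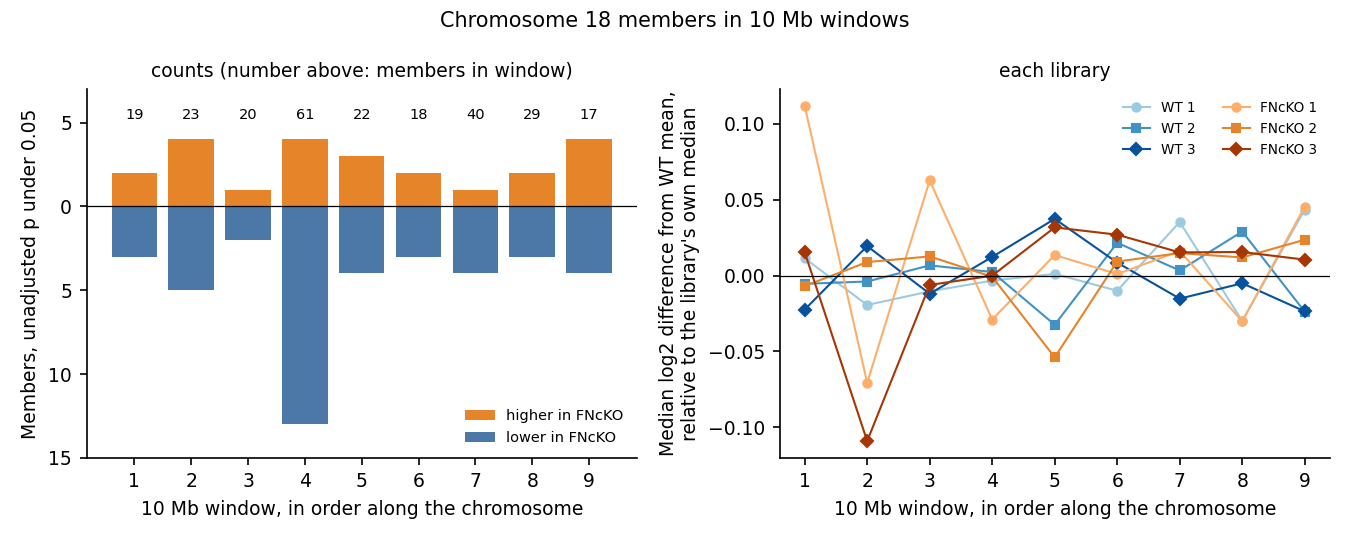
Chromosome 18 members in 9 windows of 10 Mb, in order along the chromosome. The left panel counts members with an unadjusted p under 0.05 that were higher (upward) or lower (downward) in FNcKO, with the number of members above; the right panel gives for each library the median log2 difference from the WT mean relative to the library's own median, and FNcKO replicates 1 and 3 reach furthest from 0, at 0.11 and -0.11.

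Members were also grouped by function, and no list held more than 1 member past the adjusted threshold. For comparison, 18.1% of all genes tested had an unadjusted p under 0.05, 6.74% higher and 11.4% lower. Of 60 protocadherins on the chromosome, 3 reached 1 FPKM and 0 passed limma's test at the adjusted threshold, with 2 at an unadjusted p under 0.05, both lower. Pcdhb14 was at 1.77 ± 0.133 FPKM in WT and 1.21 ± 0.134 FPKM in FNcKO, and Pcdhga10 at 1.39 ± 0.261 and 0.728 ± 0.136 FPKM (mean ± SD, n = 3 each; limma adjusted p = 0.135 and 0.137). The values of the clustered protocadherins are uncertain, since many of these genes share exons. Of 9 desmosomal cadherins only Dsc2 was a member, at a log2 change of 0.01 (limma adjusted p = 0.97).

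Of 7 matrix, adhesion and proteoglycan genes, Colec12 rose and none fell, 2 had an unadjusted p under 0.05 (28.6%), both higher, and the median log2 change was -0.01. Lama3, a chain of laminins of epithelial basement membranes, was at 3.71, 4.27 and 4.71 FPKM in WT and 5.61, 5.43 and 5.38 FPKM in FNcKO (limma adjusted p = 0.144). The groups did not overlap. Ndst1, an enzyme of heparan sulfate synthesis, had a log2 change of -0.12 (limma adjusted p = 0.579). Of 17 signalling genes, Malt1 fell and none rose, and 4 had an unadjusted p under 0.05 (23.5%), all lower, while 8 of the 17 had log2 changes above 0. Mcc, a cell migration and Wnt-related gene, and Diaph1, an actin-nucleating formin, were 2 of these, with log2 changes of -0.28 and -0.19 (limma adjusted p = 0.173 and 0.231).

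Of 28 transcription and chromatin genes, Cxxc5 rose and none fell. At an unadjusted p under 0.05 were 3 higher and 3 lower members (21.4% in all), among them Brd8, a bromodomain protein, with a log2 change of 0.28, and Esco1, a cohesin acetyltransferase, with -0.29 (limma adjusted p = 0.175 and 0.155). The median log2 change of this list was 0.01. Of 24 genes of translation, transfer RNA charging, folding and secretion, 0 passed limma's adjusted test and 3 had an unadjusted p under 0.05 (12.5%). Lars, leucyl-tRNA synthetase, stood closest, at 6.45, 5.97 and 7.33 FPKM in WT and 9.52, 11.8 and 10.7 FPKM in FNcKO (limma adjusted p = 0.0504). Its groups did not overlap, and it passed with median-ratio scaling, quantile normalization, a filter at 5 FPKM and a pseudocount of 0.1.

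Of 22 cytoskeleton and trafficking genes, 0 passed limma's adjusted test, with 4 at an unadjusted p under 0.05 (18.2%). Kif5b, a kinesin heavy chain, was at 20.8 ± 0.307 FPKM in WT and 24.5 ± 1.74 FPKM in FNcKO, and Cep120, a centrosomal protein, at 3.61 ± 0.234 and 2.96 ± 0.0619 FPKM (mean ± SD, n = 3 each; limma adjusted p = 0.185 and 0.169). Of 16 metabolism and transport genes, 0 passed limma's adjusted test, while 6 had an unadjusted p under 0.05 (37.5%), all lower, and 3 of 16 had log2 changes above 0. The median of this list was -0.12, where that of all genes tested was -0.04. Slc12a2, the sodium-potassium-chloride cotransporter, was at 6.12, 6.61 and 7.53 FPKM in WT and 4.83, 5.37 and 4.78 FPKM in FNcKO (limma adjusted p = 0.113). Npc1, which moves cholesterol out of lysosomes, was at 1.76, 1.96 and 1.92 FPKM in WT and 1.3, 1.11 and 0.748 FPKM in FNcKO (limma adjusted p = 0.116). Neither gene's groups overlapped.

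Outside the lists, Dtna, a dystrobrevin of the dystrophin complex, was at 13.8, 14.6 and 14 FPKM in WT and 17.8, 20 and 20.7 FPKM in FNcKO (limma adjusted p = 0.052). The pseudogene Eif3s6-ps2 was at 1.79 ± 0.464 FPKM in WT and 3.9 ± 0.339 FPKM in FNcKO (mean ± SD, n = 3 each; limma adjusted p = 0.0504). Its likely parent by name, Eif3e on chromosome 15, stood at 42.3 ± 3.27 FPKM in WT and 32 ± 2.73 FPKM in FNcKO (mean ± SD, n = 3 each; limma adjusted p = 0.106), and thus on the other side of WT from the copy. Ankrd29, Chst9, Zfp407 and the pseudogene Gm5826 had log2 changes of 0.48, 0.47, 0.24 and 0.39, with limma adjusted p from 0.0745 to 0.144. On the lower side, LOC108168384, the pseudogene Gm6883 and Mtpap, the mitochondrial poly(A) polymerase, had log2 changes of -0.27, -0.42 and -0.35, with limma adjusted p from 0.104 to 0.123.

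Some genes of the chromosome mark other cell types of the eye. Ttr, transthyretin, which is made by pigment and ciliary epithelia, was at 6.53, 7.97 and 12.1 FPKM in WT and at 3.14, 3.36 and 4.54 FPKM in FNcKO (limma adjusted p = 0.0887). The groups did not overlap. The 6 choroid, ciliary body and iris markers, Ttr among them, summed higher in FNcKO, with sums of 28.1 to 41.1 FPKM in WT and 54.6 to 73.5 FPKM in FNcKO, and 1 of 4 tested was past the test, higher. The rise of the sum lay mostly in Optc, with means of 18.3 FPKM in WT and 42.9 FPKM in FNcKO, and Aqp1, with 5.27 and 15.6 FPKM. Ttr went the other way. Des (means of 0.00801 FPKM in WT and 0.0106 FPKM in FNcKO) and Myoc (0.061 and 0.0175 FPKM) were near 0 in both groups. Whether this sum follows the amount of these tissues, or changes of Optc and Aqp1 in lens cells, was not tested. The 7 pigment cell markers summed to 5.04 to 6.89 FPKM in WT and 3.32 to 4.19 FPKM in FNcKO. Of the 7, only 1 was tested, and it did not pass. Oca2 had means of 2.2 FPKM in WT and 1.2 FPKM in FNcKO. Tyrp1 (0.533 and 0.712 FPKM) and Tyr (0.21 and 0.226 FPKM) went the other way. Pde6a, a rod phosphodiesterase subunit and one of the 10 rod markers, was at 5.21, 2.25 and 5.18 FPKM in WT and 2.44, 2.47 and 2.03 FPKM in FNcKO, with WT replicate 2 among the FNcKO values. The macrophage genes Cd14, Cd74 and Csf1r and the myelin gene Mbp, also on chromosome 18, lay below 1 FPKM on average and were not tested.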

How the data were processed

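Lens RNA from 3 WT and 3 FNcKO libraries was analysed from 1 table of FPKM values that the authors deposited; groups were taken from the sample titles. The tools named per the submitters' processing notes are Cuffdiff 2.2.1, TopHat2 2.1.0, FastQC and cutadapt 1.12, with the builds mm10 and GRCm38.p5. The sources used here do not give their order, the annotation or any scaling between libraries. Start positions were raised by 1.

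Genotypes were compared on log2(FPKM + 1), which understates changes of low genes, by a two-sided moderated test in limma 3.58.1 (R 4.3.3; trended prior variance, Benjamini-Hochberg adjustment) over all 10149 genes whose mean reached 1 FPKM, and only chromosome 18 rows are reported. Folds are ratios of mean FPKM. Windows, neighbours and lists were described by counts, with no test. Depths were estimated from low values of single-exon genes, where 58.4% to 66.9% of values lay near whole fragments after 200 bases were taken off each length; they enter no test.

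Members and lists were chosen with earlier results of these data known. Named members are all past the threshold; 8 higher and 8 lower next by p; 6 by level; 3 on each side of the level rule; neighbours of calls; 6 by spread; and up to 4 per list, of which some are not printed. Nedd4l, Pde6a, Cd14, Cd74, Csf1r, Mbp, Eno1 and Eif3e were also named as neighbours, markers or copies. Alternatives were other pseudocounts, scalings, filters, no trend, a replicate block, each library left out, and other windows.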

Additional observations from a re-analysis of the deposited data

How the results depend on the processing

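The count of 13 called members was 2 with a replicate block (0.138% of all genes passed) and 3 to 7 with 1 library left out (0.365% to 1.15%), 9 of 85 with a filter at 5 FPKM (4.05%) and 11 with one at 0.1 FPKM (1.01%), and lay between 9 and 16 under the other alternatives. Replicate numbers did not pair the libraries: deviations of same-numbered WT and FNcKO libraries correlated at -0.03, -0.05 and -0.05. With the replicate block, chromosome 8 had a larger share at an unadjusted p under 0.05 than the members, 20.8% against 19.9%. The count at an unadjusted p under 0.05 was 40 at an equal FPKM total and 28 of 85 with a filter at 5 FPKM, instead of 65. The median log2 change was 0.16 at an equal FPKM total and 0.0057 after quantile normalization. The share of neighbours with the same sign was 61.6% at an equal FPKM total, 59.5% with a filter at 5 FPKM and 46% to 54.4% with 1 library left out; the filters, the trend, the block and the left-out libraries for this share, and the count without short rows, were chosen after seeing the data. With windows of 5 Mb the fullest held 9 members with an unadjusted p under 0.05, instead of 17. At an equal FPKM total the log2 changes of Pura, Rbm27 and Paip2 turned to 0.0337, 0.0342 and 0.0319. Over 78 named members and their alternatives, 927 of 1048 values kept direction and side of the threshold. Only 13 of the 78 had been called, so most values that were kept belong to members that did not pass. All 70 values that no longer passed belong to the 13 called members, and 11 values of other members newly passed. The sign changed in 3 values of members with an unadjusted p under 0.05 and in 37 values of members above it. Fragment numbers are estimates, and 3 libraries a group limit the precision.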
